A study of Mus musculus with 23 samples.

Results

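The genes described here encode the sheet of matrix that lies on each muscle fiber, the basement membrane, and collagen VI, the microfibril that lies next to it. They were the 10 genes Col4a1, Col4a2, Nid1, Hspg2, Lama2, Lamb1, Lamc1, Col6a1, Col6a2 and Col6a3, chosen by name and matched by symbol to the Ensembl gene IDs of the count table. All 10 were found among the 55573 gene IDs, and all 10 were among the 13049 genes with enough counts to be tested. No measured value is part of this rule.

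RNA of quadriceps muscle was sequenced in bulk from 23 C57BL/6J mice (C57Bl6 in the labels) aged 8 to 10 weeks. A slow-release pellet under the skin of the neck held 50 mg corticosterone, the main glucocorticoid of mice, and 50 mg cholesterol in 6 males and 5 females, and 100 mg cholesterol alone (vehicle) in 6 males and 6 females. Muscle was collected after 14 days and a 5 h fast, which all 4 groups shared. The question was how the muscle transcriptome responds to corticosterone in each sex, here for the genes of this matrix.

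A basement membrane is built from laminin, a trimer of an alpha, a beta and a gamma chain that binds receptors on the cell, and from a network of collagen IV, and nidogen and perlecan link these layers. Muscle fibers hold on to laminin with the alpha2 chain through dystroglycan and integrins, and its loss causes a congenital muscular dystrophy. Collagen VI is made mainly by fibroblasts of the muscle as a trimer of alpha1, alpha2 and alpha3 chains, and its mutations cause Ullrich and Bethlem myopathy.

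The upstream sequences of the genes on which the results turn are shown first, taken from RefSeq on GRCm38.p6, 5′ to 3′ on the strand of the gene, which was minus in all 4. They comprise the 3 chains of collagen VI, which fell most, and Lama2, which had the opposite sign in males. Capitals mark matches to short motifs on either strand: the hexamer AGAACA of the glucocorticoid response element, the GC box GGGCGG, and the CT box CCTCCC. The line for Col6a1 holds only the 126 bases at chr10:76726169-76726294 that no annotated exon covers. Col6a2 is shown at chr10:76623631-76623880, Col6a3 at chr1:90843972-90844221 and Lama2 at chr10:27616943-27617192, each the 250 bases before a transcription start. The window of Lama2 lies in an intron of longer transcripts in GENCODE M21.
Col6a1: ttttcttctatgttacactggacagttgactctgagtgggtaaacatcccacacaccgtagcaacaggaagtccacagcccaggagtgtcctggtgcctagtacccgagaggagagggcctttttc
Col6a2: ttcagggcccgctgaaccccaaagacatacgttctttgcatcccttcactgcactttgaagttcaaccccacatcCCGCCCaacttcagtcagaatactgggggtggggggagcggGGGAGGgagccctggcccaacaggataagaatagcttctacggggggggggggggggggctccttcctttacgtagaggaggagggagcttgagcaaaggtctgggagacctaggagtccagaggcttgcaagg
Col6a3: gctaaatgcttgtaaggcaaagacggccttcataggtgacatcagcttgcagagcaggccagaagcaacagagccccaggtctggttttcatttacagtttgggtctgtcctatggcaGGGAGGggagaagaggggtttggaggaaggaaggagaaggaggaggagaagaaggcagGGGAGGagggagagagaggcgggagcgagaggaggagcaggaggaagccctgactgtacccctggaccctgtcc
Lama2: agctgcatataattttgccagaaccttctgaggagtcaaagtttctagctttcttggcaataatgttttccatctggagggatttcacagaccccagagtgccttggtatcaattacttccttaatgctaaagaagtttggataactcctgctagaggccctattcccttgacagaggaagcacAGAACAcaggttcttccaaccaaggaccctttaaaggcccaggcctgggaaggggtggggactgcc
In these lines Col6a2 held 1 GC box (as CCGCCC) and 1 CT box (as GGGAGG), Col6a3 held 2 CT boxes, and Lama2 held 1 AGAACA. The whole 250-base window of Col6a1, of which the annotated exon part is not shown, held 6 CT boxes, none of them within the line shown, and the window of a further start of Col6a2, also mostly exon, held 3 GC boxes and 3 CT boxes. Among the 250 bases before each of 32851 RefSeq starts, 38.0% held the CT box, 32.7% the GC box, 33.8% CCAAT, 12.4% TATAAA and 16.1% AGAACA, so that each of these motifs was common. The longer response element AGAACANNNTGTTC, found before 0.0304% of all starts, was in none of the windows of the 9 genes with an entry. Such matches describe letters and are not binding sites.

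In GENCODE M21 on GRCm38, Col4a1 lay at chr8:11198423-11312826 on the minus strand and Col4a2 at chr8:11312805-11449287 on the plus strand, head to head, with exons that overlap on opposite strands. Reads were counted by strand, so the pair was counted apart. Col6a2 (chr10:76595762-76623630) and Col6a1 (chr10:76708792-76726168) were neighbours on the minus strand, and Lama2 (chr10:26980036-27619758) was on the same chromosome. Col6a3 lay at chr1:90765923-90843971, Lamc1 at chr1:153218922-153332786, Lamb1 at chr12:31265234-31329644, Nid1 at chr13:13437551-13512269 and Hspg2 at chr4:137468769-137570630. None shared exon sequence with another gene on its own strand.

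Libraries were of like depth, with 20904150 to 21984477 counts on genes per mouse. Levels are given as CPM, counts relative to the total counts of the library after TMM scaling, and as CPM per kb of exon where genes are compared with each other. Fkbp5, a direct target of the glucocorticoid receptor, rose in males by 3.36 ± 0.30 on the log2 scale (SE, edgeR, Benjamini-Hochberg adjusted p = 6.7e-08) and in females by 3.05 ± 0.30 (adjusted p = 1.8e-06), with no overlap of treated and vehicle-treated mice in either sex. The summed level of 6 muscle fiber genes was at least 66507 CPM in every mouse, so that defining genes of muscle fibers were abundant throughout. The summed level of 6 hepatocyte genes was 1059 to 2459 CPM in 5 mice, namely corticosterone-treated males 8 and 12 and females 6 and 10 and vehicle-treated male 9, and 14.5 to 298 CPM in the other 18. Without these 5 mice, 3 of the 10 genes passed in males and 2 in females, all of them collagen VI chains. Over all 13049 genes tested, that fit of 18 mice called 2427 in males and 460 in females, against 3426 and 1748 with all 23 mice. Smaller groups and the absence of these mice cannot be told apart in it. In bulk tissue, fewer cells of a type and less RNA per cell cannot be told apart.

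In vehicle-treated males, Col4a1 had the highest level of the 10 genes at 23.1 ± 2.45 CPM per kb (SD, n = 6), followed by Col6a1 at 19.2 ± 3.01. Col4a2 (15.2 ± 1.85 CPM per kb) and Nid1 (15.2 ± 4.28) came next and differed by less than their spread, then Lamc1 (12.1 ± 0.489). Hspg2 and Col6a2 were at 9.61 and 9.21 CPM per kb and Col6a3 at 4.51. Lamb1 (2.98 ± 0.631 CPM per kb) and Lama2 (2.52 ± 0.396) were lowest and did not differ beyond their spread. After corticosterone, Col6a1 in males was at 4.62 CPM per kb, the sixth of the 10, and Col6a2 (1.91) and Col6a3 (0.782) were the lowest.

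In males the 3 chains of collagen VI had the largest changes, of which Col6a1 fell by 76.0% and Col6a3 fell by 82.7%, and Lamc1, the gamma1 chain of laminin, fell by 28.5%. The other 6 genes did not pass the threshold of an adjusted p of 0.01, and 5 of them had negative log2 fold changes. Thus 4 of 10 genes fell, against 13.1% of all genes tested. No member rose by edgeR, against 13.2% of all genes, while Lama2 was higher at an unadjusted p under 0.05 and by limma-voom, and none by DESeq2. The median log2 fold change was −0.80 over the 10 genes and −0.02 over all genes tested. Every treated male lay below every vehicle-treated male for 6 of the 10 genes, a separation seen for 11.1% of all genes.

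Col6a3 lay at 46.0 to 66.6 CPM in males given vehicle (median 50.3) and at 6.51 to 11.95 CPM after corticosterone (median 9.50). Col6a1 ranged from 69.0 to 99.98 CPM (median 83.1) with vehicle and from 15.1 to 25.7 CPM (median 20.5) with corticosterone. Col6a2 ranged from 66.0 to 90.2 CPM (median 74.3) and from 12.1 to 21.2 CPM (median 15.3). The groups were far apart for each chain, and the highest treated mouse, male 2, stayed below the lowest vehicle-treated mouse. Col6a3, the longest chain, fell by 2.53 ± 0.22 on the log2 scale (SE, edgeR, Benjamini-Hochberg adjusted p = 5.7e-08). Col6a2 fell by 2.27 ± 0.19 (edgeR adjusted p = 3.2e-08) and Col6a1 by 2.06 ± 0.19 (edgeR adjusted p = 9.4e-08).

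**Figure D1:**
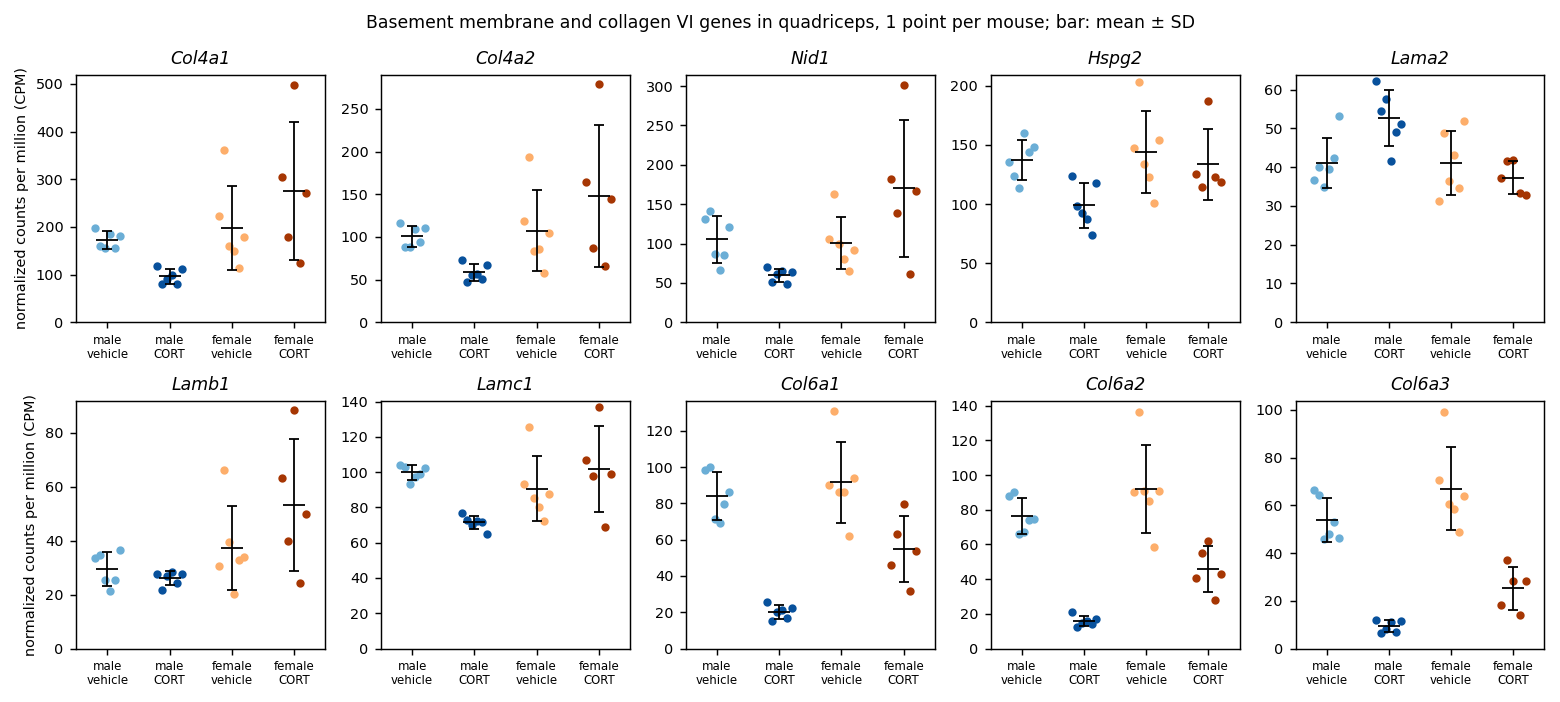
Level of each of the 10 genes in CPM (y axis, from 0, own scale per gene) in each mouse, by sex and treatment; bars give the mean ± SD of 6 mice, or 5 for corticosterone-treated females. The collagen VI chains of treated males sit below 26 CPM, and treated females are widely spread for Col4a1, Col4a2, Nid1 and Lamb1.

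Collagen IV, the network-forming collagen of the basement membrane, was lower in each treated male than in any vehicle-treated male. Col4a1 ranged from 155 to 198 CPM (median 171) with vehicle and from 80.1 to 117 CPM (median 95.1) with corticosterone, a log2 difference of −0.84 ± 0.27. Col4a2 ranged from 87.9 to 116 CPM (median 102) and from 47.6 to 73.3 CPM (median 56.4), a log2 difference of −0.79 ± 0.28. Although the groups did not overlap, neither passed the threshold in the fit over both sexes (edgeR, Benjamini-Hochberg adjusted p = 0.0159 and 0.0276), in which the spread is estimated from all 4 groups. The spread was larger in females, with an SD of 144 CPM for Col4a1 in corticosterone-treated females against 15.9 CPM in treated males. With males fitted alone, 8 of 10 genes passed (edgeR adjusted p = 9.1e-05 for Col4a1 and 0.00017 for Col4a2), against 13.4% of all genes called lower in that fit.

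Among the laminin chains, Lamc1 ranged from 93.4 to 104 CPM (median 101) with vehicle and from 65.1 to 76.8 CPM (median 72.0) with corticosterone in males. These groups were narrow and did not overlap, and the fall was 0.48 ± 0.12 on the log2 scale (edgeR, Benjamini-Hochberg adjusted p = 0.00395). Without treated male 12 the adjusted p was 0.0116, and without the 5 mice with high hepatocyte genes it was 0.0203. Lamb1, the beta1 chain, was at 21.2 to 36.6 CPM (median 29.6) and 21.6 to 28.3 CPM (median 27.2), with overlapping groups and a log2 difference of −0.18 ± 0.25 (edgeR adjusted p = 0.593). Lama2, the alpha2 chain of the laminin of muscle fibers, was at 35.0 to 53.3 CPM (median 39.7) with vehicle and 41.7 to 62.3 CPM (median 52.9) with corticosterone. It was the gene with a positive log2 difference, 0.36 ± 0.13, which did not pass (edgeR adjusted p = 0.0276), although all 6 treated males lay above the mean of vehicle-treated males.

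Nid1, which joins laminin to collagen IV, was at 66.9 to 142 CPM (median 104) in vehicle-treated and 48.4 to 69.7 CPM (median 62.3) in corticosterone-treated males. Only 1 vehicle-treated male, male 7, lay within the range of the treated mice, and the log2 difference was −0.82 ± 0.27 (edgeR, Benjamini-Hochberg adjusted p = 0.0194). Hspg2, which encodes the proteoglycan perlecan, was at 113 to 160 CPM (median 140) and 74.1 to 124 CPM (median 95.2), a log2 difference of −0.48 ± 0.16 (edgeR adjusted p = 0.0185). Its groups overlapped at their edges.

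In females the collagen VI chains fell as well, and the basement membrane genes did not pass the threshold in either direction. Thus 3 of 10 genes passed, all of them lower, against 13.4% of all genes tested that passed in either direction. That share stands for 1748 genes, of which 783 were lower. With 1 female left out, 1004 to 2359 passed (1004 without treated female 6). None rose by edgeR, DESeq2 or limma-voom, while Nid1 was higher at an unadjusted p under 0.05. The median log2 fold change was 0.03, against 0.04 over all genes tested. Separate groups, with each treated female below each vehicle-treated female, were found for 1 of 10 genes, Col6a3, and for 4.34% of all genes.

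Col6a3 was at 48.9 to 99.2 CPM (median 62.3) in vehicle-treated females and at 18.3, 37.0, 28.4, 14.1 and 28.2 CPM in corticosterone-treated females 2, 4, 6, 8 and 10. Every treated female was below the lowest vehicle-treated one, a fall of 1.41 ± 0.22 on the log2 scale (edgeR, Benjamini-Hochberg adjusted p = 0.00016). Col6a2 was at 58.5 to 137 CPM (median 90.3) with vehicle and at 40.9, 55.3, 62.0, 28.0 and 42.8 CPM with corticosterone, a fall of 1.004 ± 0.192 (edgeR adjusted p = 0.00082). Treated female 6 alone overlapped the vehicle-treated group. Col6a1 was at 61.8 to 131 CPM (median 88.4) and at 46.1, 63.3, 79.5, 31.5 and 54.0 CPM, a fall of 0.74 ± 0.20 (edgeR adjusted p = 0.00860), with females 4 and 6 inside the vehicle range. The call for Col6a1 was lost in 8 of 11 fits that each left out 1 female, with adjusted p up to 0.0271. With females fitted alone only Col6a3 passed, 1 of 10 genes and lower, against 2.35% of all genes called lower in that fit.

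The collagen IV genes varied more among corticosterone-treated females than in any other group. Col4a1 was at 114 to 362 CPM (median 169) in vehicle-treated females and at 305, 179, 499, 124 and 271 CPM in corticosterone-treated females 2, 4, 6, 8 and 10, a log2 difference of 0.48 ± 0.28 (edgeR, Benjamini-Hochberg adjusted p = 0.206). Col4a2 was at 57.9 to 194 CPM (median 95.1) and at 164, 87.2, 279, 66.0 and 144 CPM, a log2 difference of 0.47 ± 0.29 (edgeR adjusted p = 0.238). Female 6 lay above every vehicle-treated female for both genes, and female 8 lay near the lowest of them. Without treated female 6 the log2 difference of Col4a1 was 0.14, and without vehicle-treated female 3 it was 0.75.

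In treated females, Nid1, Lamb1 and Lamc1 followed the same order of mice as both collagen IV genes, with female 6 highest, then 2, 10 and 4, and female 8 lowest. Nid1 was at 65.5 to 162 CPM (median 95.6) with vehicle and at 182, 138, 302, 61.0 and 167 CPM with corticosterone, the highest log2 difference in females at 0.76 ± 0.28 (edgeR, Benjamini-Hochberg adjusted p = 0.0496). It passed without treated female 8 (edgeR adjusted p = 0.00406). Lamb1 was at 20.4 to 66.1 CPM (median 33.3) and at 63.4, 39.8, 88.4, 24.3 and 49.99 CPM (0.52 ± 0.26). Lamc1 was at 72.4 to 125 CPM (median 86.6) and at 107, 97.8, 137, 69.0 and 98.8 CPM (0.17 ± 0.13). Female 6 lay above every vehicle-treated female for each of these 3 genes, and female 8 below them all for Nid1 and Lamc1. Lama2 was at 31.2 to 51.9 CPM (median 39.8) and at 37.1, 41.5, 41.9, 33.4 and 32.8 CPM (−0.14 ± 0.13), and Hspg2 at 101 to 203 CPM (median 140) and at 125, 115, 187, 123 and 119 CPM (−0.10 ± 0.16), both with treated females inside the vehicle range.

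Treated female 6 was the highest of its group for 9 of the 10 genes and female 8 the lowest for 8, and vehicle-treated female 3 was the highest of its group for 9. These mice also stood apart in marker genes of some other cells, but not of all. The summed level of 7 adipocyte genes was 3626, 1090, 6870, 270 and 3259 CPM in treated females 2, 4, 6, 8 and 10, the same order of mice as for Col4a1, Col4a2, Nid1, Lamb1 and Lamc1. Among treated females, that of 7 macrophage genes was lowest in female 8, at 83.1 CPM. Female 10, not female 6, was the highest treated female for macrophage (261 CPM), fibroblast (833 CPM), Schwann cell (297 CPM) and endothelial (504 CPM) markers. For endothelial markers female 8 (456 CPM) lay above female 6 (381 CPM). In vehicle-treated females, female 3 had the highest summed endothelial (613 CPM), fibroblast (829 CPM) and macrophage (136 CPM) level. The highest adipocyte level of that group was in female 5 (2589 CPM). The part of these cells in the levels of the 10 genes was not tested.

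**Figure D2:**
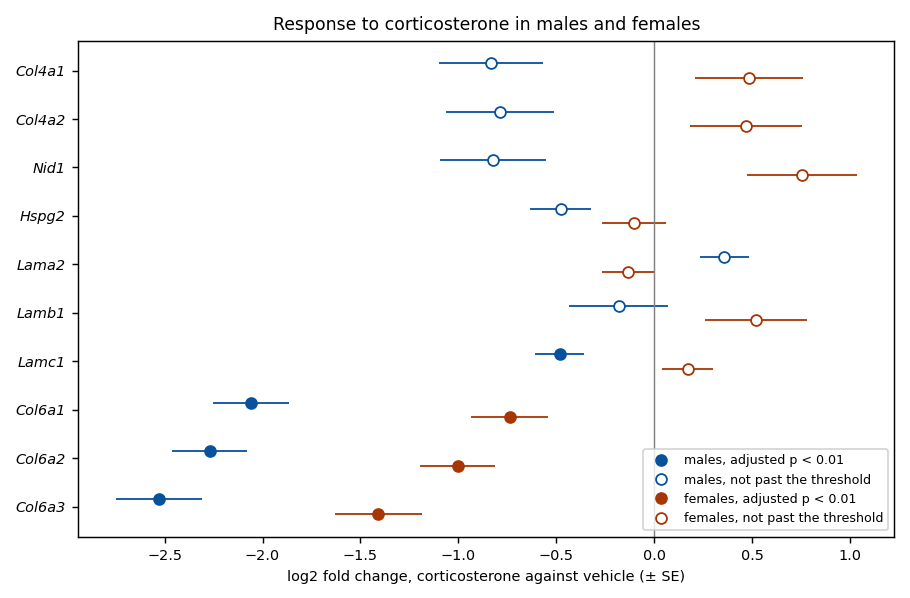
Log2 fold change of each gene after corticosterone (x axis, ± SE from edgeR) in males and females; filled points have an adjusted p under 0.01. The collagen VI chains lie left of 0 in both sexes and further left in males, and Col4a1, Col4a2, Nid1, Lamb1 and Lamc1 lie on opposite sides of 0 in the 2 sexes.

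The difference between the male and the female response was negative for 9 of the 10 genes, with a median of −1.19 on the log2 scale against −0.05 over all genes tested. By edgeR's test of the interaction of sex and treatment, 1 of 10 genes passed, against 0.690% of all genes. That share rests on 90 genes, a number that ran from 1 to 893 with 1 mouse left out (1 without vehicle-treated male 3 and 893 without treated female 8). The call was for Col6a1, at −1.32 ± 0.27 (edgeR, Benjamini-Hochberg adjusted p = 0.00988), just inside the threshold. It lost the call in 19 of 23 fits that left out 1 mouse, and also without male 8 and female 10 together (edgeR adjusted p = 0.0360) and without the 5 mice with high hepatocyte genes (edgeR adjusted p = 0.106). Col6a2 (−1.27, edgeR adjusted p = 0.0107) and Nid1 (−1.58, edgeR adjusted p = 0.0184) came next. DESeq2 and limma-voom each called 6 of the 10, against 6.87% and 5.31% of all genes.

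Between vehicle-treated males and females no difference was detectable in the 10 genes at this precision. No gene passed by edgeR, DESeq2 or limma-voom, none had an unadjusted p under 0.05, and 0.958% of all genes passed. The largest log2 difference of males against females was −0.33 ± 0.25, for Lamb1. Among corticosterone-treated mice, 9 of the 10 genes differed between the sexes, against 23.3% of all genes. Of these, 8 were lower in males and Lama2 was higher, and 6 to 9 of the 10 passed with 1 treated mouse left out. Over all genes, 3043 differed, and 1885 to 3742 with 1 treated mouse left out. Without the 5 mice with high hepatocyte genes, 3 of the 10 passed, the collagen VI chains, and 290 of all genes. Col6a2 was 2.88-fold, Col4a1 and Nid1 2.85-fold and Lamb1 2.04-fold lower in treated males than in treated females (edgeR, Benjamini-Hochberg adjusted p = 2.8e-05, 0.00046, 0.00052 and 0.00432). Hspg2 did not pass (−0.44 ± 0.16, edgeR adjusted p = 0.0376). Whether male and female samples were handled together is not given in the sources used here, so a batch and sex cannot be told apart.

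Within collagen VI the chains did not change alike. The log2 ratio of Col6a3 to Col6a1 in males was −0.64 ± 0.13 with vehicle (SD, n = 6) and −1.13 ± 0.16 with corticosterone (n = 6, exact permutation test, two-sided, p = 0.00216, adjusted over 14 ratio comparisons p = 0.0101). In females it was −0.45 ± 0.10 (n = 6) and −1.14 ± 0.29 (n = 5, exact permutation p = 0.00433, adjusted p = 0.0121). The groups did not overlap in either sex, so the alpha3 chain fell further than the alpha1 chain in both. The log2 ratio of Col6a2 to Col6a1 fell by 0.22 in males and by 0.24 in females (exact permutation, adjusted p = 0.0101 and 0.0121), again without overlap. The p-values 0.00216 and 0.00433 are the smallest the designs of 924 and 462 regroupings allow, and a ratio within a mouse does not depend on how libraries were scaled.

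For laminin, the log2 ratio of Lama2 to Lamc1 in males rose from −1.29 ± 0.19 (SD, n = 6) to −0.45 ± 0.20 (n = 6, exact permutation adjusted p = 0.0101), with separate groups. In females it was −1.15 ± 0.30 with vehicle and −1.42 ± 0.27 with corticosterone (exact permutation adjusted p = 0.198), with groups that overlapped. The ratio of Col4a2 to Col4a1 differed by 0.05 ± 0.03 in males and by −0.03 ± 0.05 in females (SE), neither past 0.05 (exact permutation adjusted p = 0.197 and 0.531). In all, 5 of 14 ratio comparisons had an adjusted p under 0.05, and those of Lamb1, Nid1 and Hspg2 to Lamc1 did not.

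**Figure D3:**
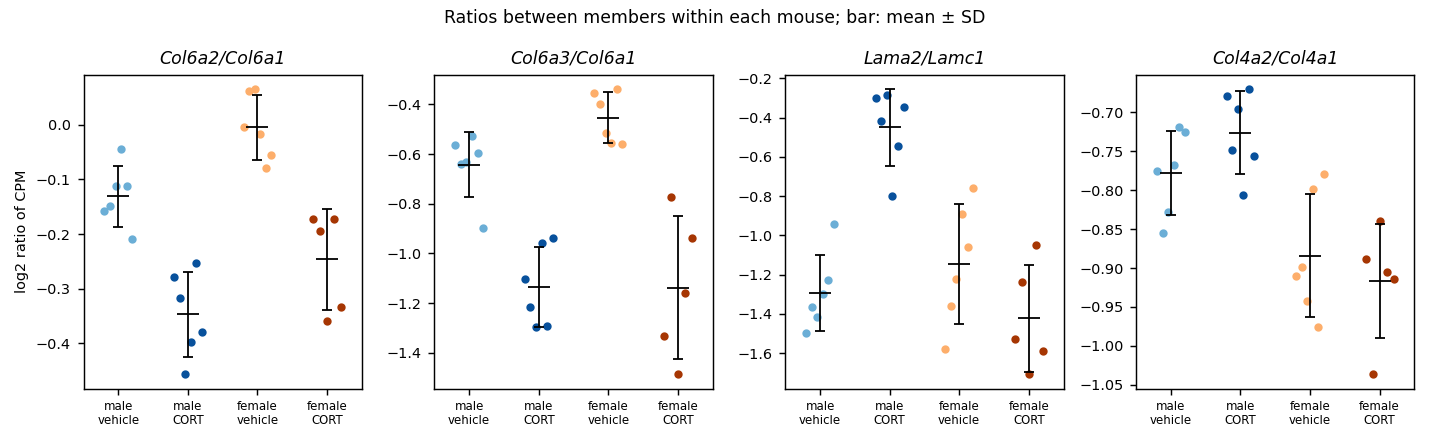
Log2 ratio of the CPM of 2 genes in each mouse (y axis), by sex and treatment, with the mean ± SD. The ratios of Col6a2 and Col6a3 to Col6a1 are lower in all treated mice of both sexes than in vehicle-treated mice of that sex, and the ratio of Lama2 to Lamc1 is higher in treated males.

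Across the 23 mice, which share the tissue but differ in sex and treatment, the genes fell into blocks by their log2 CPM. Pearson's r was 0.978 to 0.996 among the 3 collagen VI chains and 0.99 between Col4a1 and Col4a2. Among Col4a1, Col4a2, Lamb1, Lamc1, Nid1 and Hspg2 it was 0.51 to 0.99, and between these and collagen VI 0.27 to 0.76. Lama2 had r of −0.43 to −0.10 with the other 9 genes. Taken as deviations from group means, so that treatment and sex are removed, Lama2 had r of 0.20 to 0.53, and collagen VI had 0.46 to 0.88 with the other basement membrane genes. These are descriptions, and mixtures of cells in each piece of muscle enter all of them.

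**Figure D4:**
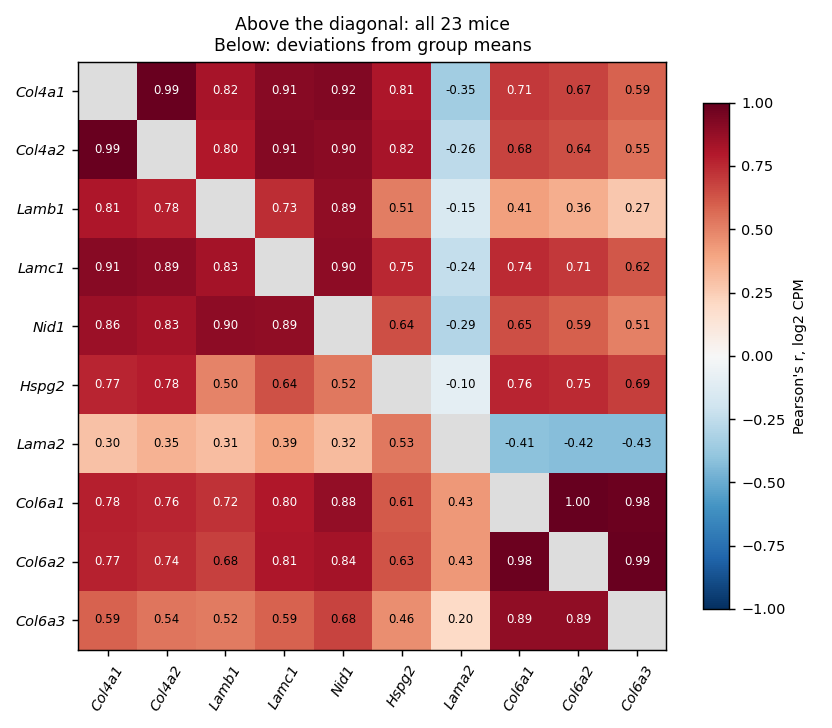
Pearson's r of log2 CPM between each pair of the 10 genes, over all 23 mice above the diagonal and over deviations from group means below it. The collagen VI chains form 1 block, Col4a1 to Hspg2 another, and Lama2 turns from negative above to positive below.

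The genes outside the 10 whose levels most resembled the mean z score of the 10 over 23 mice were Plscr3 (r = 0.93), Gnai2 (0.93), Pxdn (0.92), Igfbp7 (0.92) and Myadm (0.92). Over deviations from group means they were Tnks1bp1 (0.92), Col5a1 (0.91), Actn4 (0.91), Camkk2 (0.91) and Lasp1 (0.91). Of the lists below, the summed fibrillar collagens had r of 0.97 to 0.98 with each collagen VI chain over all mice and 0.80 to 0.86 over deviations. Summed fibroblast markers had r of 0.77 to 0.82 with them over all mice, summed adipocyte markers had r of 0.88 with Lamb1 and 0.78 with Nid1, and summed macrophage markers had r of 0.84 with Nid1.

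Of 29 further genes of the basement membrane and collagen VI families, 25 were tested. In males 5 fell and 2 rose, against 13.1% and 13.2% of all genes, with a median log2 fold change of −0.26 against −0.02. In females 6 passed, against 13.4% of all genes in either direction. No test over the list was run, so these counts are not read as a result about it. Col15a1, a collagen of the outer basement membrane zone, fell furthest, from 27.4 to 48.2 CPM with vehicle to 3.46 to 8.40 CPM with corticosterone (−2.86 ± 0.29, edgeR, Benjamini-Hochberg adjusted p = 2.6e-07), and without overlap. Col4a5 (−1.87) and Col6a6, a further collagen VI chain (−1.65), fell in males too, with Smoc2 (−1.26) and Ntn4 (−0.83), the latter a call lost in 12 of 22 alternatives. That count, as each count of alternatives below, includes the log2 limit of 1, which by its rule ends any call with a smaller change. Lamb2, the beta2 laminin chain of neuromuscular junctions, rose by 0.44 and Tinagl1 by 0.96. In females 3 fell, namely Col6a6 (−1.63), Smoc2 (−1.37) and Col15a1 (−1.19), and 3 rose, among them Fbln1 (1.84) and Tinagl1 (0.84), with a median of 0.11.

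Of the chains that partner the 10 genes elsewhere in the tissue, Lama4, Lama5, Nid2 and Col18a1 did not pass with treatment in either sex. Lama4 and Nid2 passed between treated males and females and were lower in males, where 23.3% of all genes passed. Lama4, the alpha chain of vessel laminin, had −0.59 ± 0.26 in males and 0.91 ± 0.26 in females (edgeR, Benjamini-Hochberg adjusted p = 0.0681 and 0.0139). Nid2 had −0.92 ± 0.31 and 0.45 ± 0.32, and Col18a1 −0.17 ± 0.41 and 1.10 ± 0.42. Lama5 had −0.03 ± 0.13 and −0.10 ± 0.14. Lama4, Nid2 and Col18a1 thus had opposite signs in the sexes, as Col4a1 and Nid1 had.

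Of 13 receptors on the cell side, 2 rose and 6 fell in males, against 13.2% and 13.1% of all genes, and 1 passed in females, which rose, against 13.4% in either direction. Itga7, the alpha chain of the main laminin-binding integrin of muscle fibers, rose in both sexes, from 54.6 to 84.2 CPM to 121 to 150 CPM in males (0.94 ± 0.11, edgeR, Benjamini-Hochberg adjusted p = 8.3e-07) and from 57.2 to 74.5 CPM to 107 to 153 CPM in females (1.04 ± 0.11, edgeR adjusted p = 2.6e-06). Its groups did not overlap in either sex. Dag1, which encodes dystroglycan, rose in males by 0.53 ± 0.10 (edgeR adjusted p = 0.00028) and had 0.31 ± 0.11 in females (edgeR adjusted p = 0.0352). Itgb1, the beta1 integrin chain, had −0.14 and −0.01. The 6 receptors that fell in males were the collagen receptors Antxr1 (−1.16), Antxr2 (−0.90), Itga1 (−0.60) and Itga2 (−1.68) and the laminin receptors Itga6 (−0.71) and Bcam (−0.56). Itga2 was barely detected, with 8 to 39 counts in vehicle-treated and 2 to 9 counts in corticosterone-treated males. Of 22 alternatives, the call was lost in 14 for Bcam, 8 for Itga6, 7 for Itga1, 3 for Itga2, and 1 each for Antxr1 and Antxr2. For Bcam, Itga6, Itga1 and Antxr2, 1 of these losses was fixed by the rule of the log2 limit of 1. It was the only loss for Antxr2, whose adjusted p was at most 0.00106 over the alternatives (edgeR, DESeq2 or limma-voom).

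Of 13 genes for the sugar chains by which dystroglycan binds laminin, 11 were tested. In males 3 fell, among them B3galnt2 (−0.88) and Pomgnt2 (−0.40), against 13.1% of all genes. In females 2 fell, B3galnt2 (−0.90) and Rxylt1 (−0.43), where 13.4% of all genes passed in either direction and 783 of 13049 were lower. Both calls in females were lost in most of 21 alternatives, 13 for B3galnt2 and 12 for Rxylt1, and in males 5 of 22 alternatives lost that of B3galnt2 and 6 that of Pomgnt2. The median log2 fold change was 0.02 in males and −0.13 in females.

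Of 14 genes for collagen folding and crosslinking, 5 fell in males, against 13.1% of all genes, and 1 fell and 1 rose in females, against 13.4% in either direction. Serpinh1, the collagen chaperone HSP47, was at 87.1 to 143 CPM in vehicle-treated and 34.2 to 48.5 CPM in corticosterone-treated males, a fall of 1.53 ± 0.24 (edgeR, Benjamini-Hochberg adjusted p = 3.2e-05). In females it had 0.25 ± 0.24, and the difference between the sexes passed at −1.78 ± 0.33 (edgeR adjusted p = 0.00781), as did that of Crtap, a part of the collagen prolyl 3-hydroxylase complex (−1.30, edgeR adjusted p = 0.00952). Both calls lay just inside the threshold: that of Serpinh1 was lost in 15 and that of Crtap in 18 of 23 fits that left out 1 mouse, with adjusted p up to 0.0178 and 0.0238. Loxl2, a crosslinking oxidase, fell by 2.66 in males and by 1.47 in females, and Plod3, a lysyl hydroxylase, rose by 0.74 in females. Crtap fell by 0.90 in males, Ppib by 0.50 and P3h1 by 0.44, the last a call lost in 10 of 22 alternatives.

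**Figure D5:**
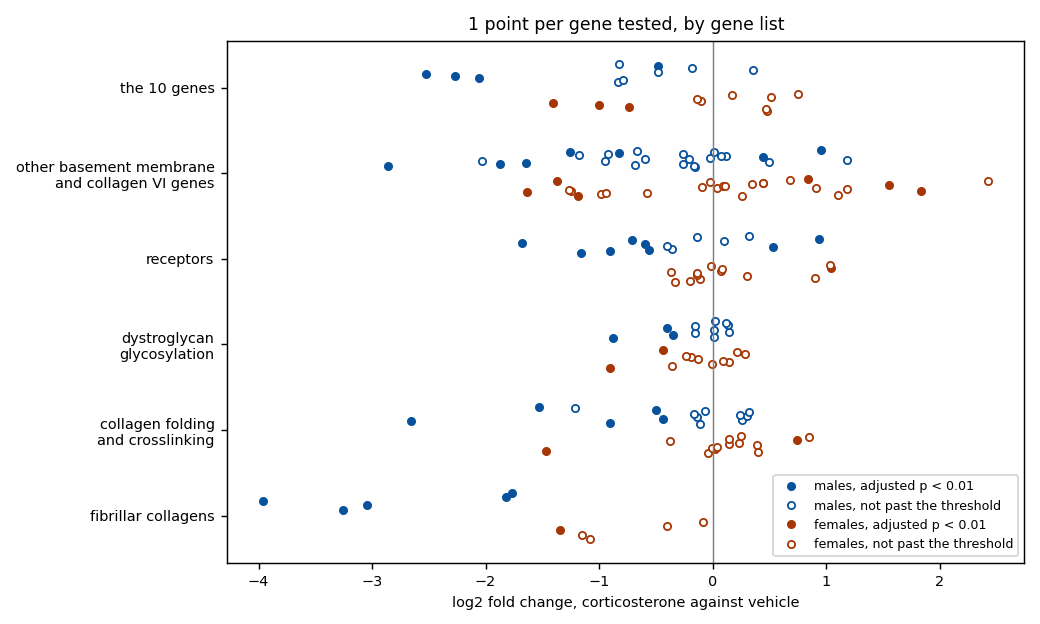
Log2 fold change after corticosterone (x axis) of each tested gene of the 10 and of the related lists (rows), in males and females; filled points have an adjusted p under 0.01. The 5 fibrillar collagens are filled and left of −1.7 in males. The dystroglycan glycosylation genes lie close to 0 in both sexes except B3galnt2, at −0.88 in males and −0.90 in females.

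The fibrillar collagens, which form the interstitial matrix between fibers, fell in males without exception. All 5 fell in males, against 13.1% of all genes, with Col3a1 at −3.96, Col1a1 at −3.26, Col1a2 at −3.04, Col5a1 at −1.82 and Col5a2 at −1.77, and Col3a1 fell in females at −1.34 (edgeR, Benjamini-Hochberg adjusted p = 0.00914), a call lost in 12 of 21 alternatives. Col1a1 had −1.08 ± 0.35 in females (edgeR adjusted p = 0.0279). In males the log2 fold changes ran from −3.96 to −3.04 for collagens I and III. They ran from −2.53 to −2.06 for Col6a1, Col6a2 and Col6a3 and from −0.84 to −0.79 for Col4a1 and Col4a2. Further chains did not keep to such an order by collagen type. Col4a5 was at −1.87 and Col6a6 at −1.65, with the fibrillar Col5a1 and Col5a2 between them. No order was tested.

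Markers of fibroblasts, the main source of collagen VI, were lower in treated males, and in females their summed level was not. Of 8 markers, 6 fell in males, against 13.1% of all genes, with a median log2 fold change of −1.41, and their summed level was 546 to 964 CPM in vehicle-treated and 355 to 513 CPM in corticosterone-treated males. In females 2 of 8 fell, Clec3b and Lum, where 13.4% of all genes passed in either direction and 783 of 13049 were lower. The median was −0.06, and the summed level was 664 ± 90.6 CPM (SD, n = 6) with vehicle and 696 ± 135 CPM (n = 5) with corticosterone. Dcn was the largest part of that sum, at 286 to 499 CPM in females. Of 10 endothelial markers 1, Tek, fell in males, near the 13.1% of all genes, and their summed level was 310 to 505 CPM and 282 to 400 CPM there. At an unadjusted p under 0.05 by edgeR, 6 were lower and 0 higher in males. DESeq2 and limma-voom each called 2 lower, and the median log2 fold change was −0.41. Of 8 pericyte and smooth muscle markers 1, Kcnj8, fell in males, again near the 13.1% of all genes, with 2 lower and 2 higher at an unadjusted p under 0.05. No list had a summed level of 0 in any mouse, and the part of each cell type in the levels of the 10 genes was not tested.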

How the data were processed

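Quadriceps RNA of 23 mice was analysed from a table of raw counts, whole read pairs per gene, as the authors deposited it. According to the study's methods, reads were aligned to mm10 with STAR 2.7.3a and counted on Ensembl genes by strand with HTSeq 0.12.4, and the outputs were merged into 1 matrix. The table holds whole numbers in 1 column per mouse. The 5 summary entries of the table, 10.7% to 15.3% of read pairs per mouse, were left out. Symbols matched 55394 of 55573 gene IDs, and positions came from GENCODE M21.

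Counts were tested with edgeR 4.0.16 (R 4.3.3) by the quasi-likelihood test with TMM scaling and 1 mean per group, over 13049 genes with more than 20 normalized counts in at least 4 mice of a group. The Benjamini-Hochberg adjustment ran over all these genes, and the threshold on the adjusted p was 0.01. Ratios between genes were compared by two-sided exact permutation tests, adjusted over 14 comparisons, with a threshold of 0.05 set after the values were seen. Log2 CPM used a prior count of 1. The test was checked on simulated counts. Replicates differed by more than sampling noise (lowest chi-square per degree of freedom 15.0), and the labels do not say more on their origin than the mouse number.

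The 10 genes, the related lists and the marker lists were chosen with earlier results of these data known. Outside the 10, the rule named Fkbp5, the genes of each related list that passed in a sex (at most the 4 with the largest change), a set of partner chains and receptors in any case, and the 5 genes most like the 10. Smoc2, Ntn4, Tinagl1, Itga6, Itga1, Bcam, Ppib, P3h1, Col5a2, Tek, Kcnj8, Clec3b, Lum, Dcn and Lep were named after their values were seen. Some genes under the rule are not reported here. The CT box was added to the motifs after the sequences had been read. Alternatives were DESeq2 1.42.0, limma-voom (limma 3.58.1) with sample quality weights, filterByExpr, no filter, the median of ratios and each sex fitted alone. Others were a log2 limit of 1, a replicate block, mice left out singly, and male 8 and female 10 left out together. The log2 limit of 1 kept the main fit and only removed calls with a smaller change. For the response of each sex, the replicate block was a correlation within replicate numbers, fitted by limma-voom. For the interaction and the comparisons between the sexes it was a fixed term in edgeR. Leaving out males 8, 9 and 12 and females 6 and 10 together was added after seeing the data.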

Additional observations from a re-analysis of the deposited data

Results flagged for a closer look

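Among 40 sets of 1 gene in 1 group, 1 mouse lay far outside the others: corticosterone-treated female 6, with 187 CPM of Hspg2 against 125 CPM in the nearest mouse of its group. About 1 in 20 such sets would hold an outlying mouse by chance. This mouse also had the highest summed adipocyte level of all 23 mice, at 6870 CPM, and the part of that tissue was not tested. Without it the log2 difference of Hspg2 in females was −0.268.

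The response of Col6a1 differed between the sexes by −1.32 on the log2 scale, males against females, in the test of the interaction of sex and treatment (edgeR, Benjamini-Hochberg adjusted p = 0.00988). Treated mice were below the vehicle mean in 6 of 6 males and 5 of 5 females. Over the alternatives the adjusted p ran from 0.00028 to 0.106, the latter without the 5 mice with high hepatocyte genes.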

How the results depend on the processing

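The 3 collagen VI chains in males (22 alternatives each) and Col6a3 in females (21 alternatives) kept their calls throughout, and Col6a2 in females lost its call with females fitted alone (edgeR adjusted p = 0.0137). Of the 10 genes, 4 passed in males, and 7 did by DESeq2, 9 by limma-voom and 8 with males fitted alone, and 3 to 5 with 1 male left out. Over all 13049 genes, 3426 passed in males, 3991 by DESeq2, 4129 by limma-voom and 3634 with males fitted alone. That number was 2888 to 3218 with 1 male left out. In females 3 of the 10 passed, and 1 did with females fitted alone, and 2 to 3 with 1 female left out. For the interaction 1 passed, and 6 did by DESeq2 and by limma-voom, 2 with the median of ratios, and 0 with filterByExpr, without a filter, with the replicate block, and without male 8 and female 10. With 1 mouse left out, 0 to 6 passed, and 6 did without treated female 8. Over all genes the interaction had 129 calls with the median of ratios, 97 with the replicate block and 65 of 15045 with filterByExpr. The related lists had 23 genes past the threshold in males, and 8 with the limit of 1. They had 11 in females, and 18 by DESeq2, 17 by limma-voom, 4 with females alone, and 7 each without male 8 and female 10 and with the limit of 1. Over all genes tested, the interaction had 90 calls, and 896 by DESeq2, 693 by limma-voom, 10 without a filter, 4 without male 8 and female 10, and 1 to 893 with 1 mouse left out. Treated males and females differed in 3043 genes, in 1382 without those mice, and in 1885 (without treated female 10) to 3742 (without treated female 8) with 1 treated mouse left out. With the limit of 1, calls went from 3426 to 982 in males and from 1748 to 732 in females, where females alone gave 561 and fits without 1 female 1004 to 2359. Without the 5 mice with high hepatocyte genes (males 8, 9 and 12, females 6 and 10; chosen after seeing the data), 3 of the 10 genes passed in males, 2 in females, 0 for the interaction and 3 between treated males and females, and 4 genes of the related lists passed in females. Over all genes this gave 2427 calls in males, 460 in females, 3 for the interaction and 290 between treated males and females. None of the ratios then passed, where the 5 that had passed were each at the smallest p the smaller groups allow (0.0159 in males and 0.0238 in females, exact permutation, adjusted p = 0.0667). The causes were not tested.

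The sign turned for small differences only. For males against females with vehicle, Col4a2 was at 0.0253 by limma-voom and at 0.0132 with the replicate block, and Lama2 at −0.000283 without male 8 and female 10 and at −0.00984 without the 5 mice. Without these, the female response was −0.0401 for Col4a2 and −0.0101 for Lamc1. With 1 mouse left out, this difference ran from −0.311 to 0.0635 for Col4a1, −0.215 to 0.163 for Col4a2, −0.213 to 0.00283 for Col6a1, −0.0845 to 0.0817 for Lama2, −0.0335 to 0.252 for Nid1 and −0.146 to 0.0582 for Hspg2. The female response of Hspg2 ran from −0.268 to 0.0299, and the male difference of its ratio to Lamc1 from −0.0882 to 0.0729, and was 0.0302 without male 8 and female 10.

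The replicate numbers pair mice by number only: of 11 male and female pairs of the same number, 7 had deviations correlated above 0.1, and 4 correlated best with their own number. Each female had 6 males to match, so some best matches of this kind arise by chance. The correlations ran from −0.377 to 0.477 and were negative for the corticosterone-treated pairs 6, 8 and 10. With the replicate block, in males a limma-voom fit, 5 of the 10 genes passed there, Col4a1 among them, and 3233 of all 13049. Tool and block changed together in that fit. Between treated males and females, where edgeR held the block as a fixed term, 7 of the 10 passed and 2262 of all genes. Over all alternatives, the 10 genes gave 1130 comparisons of a call with its main value, of which 1010 were alike, 64 lost a call, 37 gained one and 19 turned sign, and the named genes of the related lists and collagens gave 938, of which 202 lost a call. The 10 genes are covered by at least 118 counts in each mouse, so that depth limits them little.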

Other observations

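Markers of several non-muscle cells differed between corticosterone-treated males and females. By edgeR, 6 of 8 fibroblast markers, 6 of 7 macrophage markers and 5 of 6 Schwann cell markers were lower in treated males than in treated females, as 8 of the 10 matrix genes were. Over all genes, 1828 of 13049 were lower there, and 70 without the 5 mice with high hepatocyte genes. With vehicle, the Schwann cell markers had a median log2 difference of −0.73 in males against females. Of these, 3 were lower at an unadjusted p under 0.05 and none passed by edgeR. Between treated males and females, none of the 10 endothelial markers passed by edgeR, DESeq2 or limma-voom, and 4 were lower at an unadjusted p under 0.05. Of 7 adipocyte markers, 1 was lower in treated males by edgeR and 6 by DESeq2. Which of these cells carried the matrix transcripts was not tested.

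With treatment, no macrophage marker passed by edgeR in either sex. In females 4 of 7 were higher at an unadjusted p under 0.05, 3 by DESeq2 and 1 by limma-voom, and in males 3 were lower at an unadjusted p under 0.05, 1 by DESeq2 and 0 by limma-voom. Lep, which encodes leptin, was the adipocyte marker that rose in females by edgeR. Of 4 satellite cell markers, Sdc4 rose in both sexes, and Pax7 and Myf5 fell in females. Of 6 muscle fiber genes, Des, which encodes desmin, rose in males by 1.21 and in females by 0.64. None of 6 hepatocyte markers passed by edgeR, DESeq2 or limma-voom in either sex, with 3 higher in females and 0 in males at an unadjusted p under 0.05.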
